A study of Mus musculus with 18 samples.

Results

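The miR-34, miR-449, miR-192 and miR-194 miRNAs were followed as 9 mature mouse products, listed as mmu-miR-34a-5p, mmu-miR-34b-5p, mmu-miR-34b-3p, mmu-miR-34c-5p, mmu-miR-34c-3p, mmu-miR-449a-5p, mmu-miR-449c-5p, mmu-miR-192-5p and mmu-miR-194-5p. They were taken by name from every deposited table, whatever their values, and are 9 of the 1367 mature miRNAs listed in the series. Small RNAs were sequenced from mouse embryonic fibroblasts (MEF) and splenic B cells in 18 libraries of 8 groups. Eu-myc, a Myc transgene driven by an immunoglobulin heavy chain enhancer, is the labelled strain of all of them, MEF included. In MEF, the miR-17~92 cluster was deleted (d/d), overexpressed (OV) or floxed and intact (fl/fl), with 3 libraries each. Other MEF had the same deletion in both groups, and carried overexpressed miR-290~295 or an empty plasmid (Empty), again with 3 libraries each. B cells had the same d/d, OV and fl/fl genotypes with 1 library each. Libraries are called DEL1 to DEL3 (d/d), OV1, OV2 and OV4, FL3 to FL5 (fl/fl), miR-290 1 to miR-290 3 and E1 to E3 (Empty). The cells are described as isogenic. No source used here names the Cre, the overexpression vector, the age of the animals or the number of clones. Nothing says that replicates came from separate cultures, so p-values measure only the spread between these libraries, which may be technical.

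A miRNA guides Argonaute to messenger RNAs through its seed, the bases from position 2 to position 8, and miRNAs with the same seed share many targets. The miR-34 genes are among the best known transcriptional targets of p53, a tumour suppressor, and miR-34a lowers regulators of the cell cycle such as CDK6 and the MET receptor. The miR-449 family has the same seed, is abundant in ciliated epithelia, and is activated by E2F1, a factor that drives entry into the cell cycle. Human miR-192 and miR-194 are also induced by p53, and both are abundant in liver, gut and kidney. In fibroblasts, miR-34 miRNAs are known to accumulate with senescence and DNA damage.

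Mature sequences from RefSeq (GRCm38.p6) matched 8 of the 9 miRNAs, and miR-34c-5p is named only. They are shown because the seeds, in capitals, divide the miRNAs into 4 groups. miR-34a-5p, miR-34b-5p, miR-449a-5p and miR-449c-5p share a seed.
miR-34a-5p: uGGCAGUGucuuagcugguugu
miR-34b-5p: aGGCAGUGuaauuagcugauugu
miR-449a-5p: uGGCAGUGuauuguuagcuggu
miR-449c-5p: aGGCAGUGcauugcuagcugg
The 3p arms of miR-34b and miR-34c share a different one.
miR-34b-3p: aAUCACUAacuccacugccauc
miR-34c-3p: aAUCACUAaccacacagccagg
miR-192-5p has the seed of miR-215-5p, and differs from it at C1A, A12U and C20A, counted from the 5′ end of miR-192-5p.
miR-192-5p: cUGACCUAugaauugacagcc
miR-215-5p: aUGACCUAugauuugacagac
The seed of miR-194-5p is its own among them.
miR-194-5p: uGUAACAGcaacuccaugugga

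The 9 products come from 5 places in the genome (GRCm38.p6, with genes of the GENCODE vM21 annotation). Mir34a lies at chr4:150068454-150068555 on the plus strand and overlaps an exon of Gm37795. Mir34c and Mir34b are neighbours on the minus strand, at chr9:51103034-51103110 and chr9:51103562-51103645, inside an intron of Btg4, which is on the opposite strand. Mir449c (chr13:113035983-113036091) and Mir449a (chr13:113037534-113037624) lie 1442 bases apart in an intron of Cdc20b, on its strand. Mir194-2 (chr19:6264643-6264728) and Mir192 (chr19:6264844-6264932) are separated by 115 bases and overlap no annotated gene. The other copy, Mir194-1, lies beside Mir215 at chr1:185313319-185313385 and gives the same miR-194-5p, so reads of miR-194-5p cannot be assigned to one locus.

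Values are normalized counts, that is, reads divided by 1 size factor per library, from tables without spike-in scaling. Listed miRNAs took between 17191892 and 24920911 reads in each MEF library with altered miR-17~92. The range was 43164128 to 58911475 with miR-290~295 or its control, and 10203586 to 10612256 for the B-cell libraries. The mature miR-17~92 products summed to between 1419 and 1709 normalized counts in d/d MEF, 384055 and 460452 in OV MEF, and 67773 and 97382 in fl/fl MEF. In B cells they summed to 31767 in d/d, 4961454 in OV and 1256317 in fl/fl, so the d/d library still held reads of the cluster. The 6 miR-17~92 products listed with miR-290~295 or its control summed to 129 to 166 in miR-290~295 MEF and 648 to 972 in Empty MEF. Each set has its own size factors. Products of miR-290~295 summed to between 769474 and 902627 in miR-290~295 MEF, against 1580 and 2065 in Empty MEF. All 8 fibroblast marker miRNAs were listed in MEF and also in B cells, so their listing does not identify a cell type. Fewer cells of a type and less RNA per cell cannot be told apart in such bulk libraries.

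In MEF without miR-17~92, the miR-34b/c pair and the miR-192 and miR-194 pair were lower than in floxed MEF, by 1.54- to 3.41-fold, whereas miR-34a did not pass the test. Of the 8 members that averaged 10 or more normalized counts over the set, 6 were lower, 0 were higher and 2 did not pass in d/d against fl/fl MEF, by limma with Benjamini-Hochberg adjustment at 0.05 over all miRNAs tested. By the same rule 58.3% of the 662 miRNAs tested differed, 27.6% lower and 30.7% higher. The median log2 difference was -0.89 over the 8 members and 0.02 over all 662 miRNAs. miR-449a-5p was under the minimum in this set.

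mmu-miR-34c-5p, the most abundant of the miR-34 and miR-449 products in MEF, had 5188, 5440 and 6333 normalized counts in d/d MEF, 11297, 11795 and 12274 in OV MEF, and 11634, 9728 and 10339 in fl/fl MEF. Every d/d library lay below every OV and fl/fl library. Its log2 difference was -0.90 ± 0.12 (SE, n = 3 each) between d/d and fl/fl MEF, with an adjusted p of 9.8e-05 by limma. mmu-miR-34b-5p, made from the neighbouring hairpin, had 2181.7, 2243 and 2713 normalized counts in d/d MEF, 4771, 4966 and 5377 in OV MEF, and 4830, 3772 and 4474 in fl/fl MEF. Again the d/d libraries stood apart, and the OV and fl/fl libraries overlapped. The log2 difference of miR-34b-5p was -0.87 ± 0.14 in d/d against fl/fl MEF (SE, adjusted p = 0.000327, limma).

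The 3p arms were lower as well, but less evenly between libraries. miR-34b-3p had 384, 404 and 232 normalized counts in d/d MEF, 586, 520 and 631 in OV MEF, and 563, 557 and 424 in fl/fl MEF. The third d/d library was the lowest of all, and the d/d group stayed below the other two groups. The log2 difference of -0.63 ± 0.22 (SE, adjusted p = 0.0309, limma) no longer passed without DEL3 (-0.37, adjusted p = 0.101), without FL3 (adjusted p = 0.0967) or without FL4 (adjusted p = 0.0946). miR-34c-3p had 153, 148 and 46.8 normalized counts in d/d MEF, 436, 453 and 406 in OV MEF, and 346, 310 and 401 in fl/fl MEF. The groups did not overlap, and DEL3 was again the lowest. Its log2 difference was -1.77 ± 0.38 (SE, adjusted p = 0.00226, limma) with all libraries and -1.21 without DEL3 (adjusted p = 0.000305).

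mmu-miR-34a-5p, from its own locus, behaved otherwise. It had 112, 122.03 and 56.3 normalized counts in d/d MEF, 107.14, 45.8 and 51.6 in OV MEF, and 128, 121 and 109 in fl/fl MEF. DEL3 and the OV libraries OV2 and OV4 were low, and the d/d and fl/fl libraries overlapped. The log2 difference of d/d against fl/fl MEF was -0.37 ± 0.36 (SE, adjusted p = 0.387, limma) and -0.03 without DEL3. This p does not show that miR-34a-5p was equal in the groups.

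mmu-miR-192-5p had 2472, 2701 and 2802 normalized counts in d/d MEF, 5644, 6559 and 6299 in OV MEF, and 5616, 5314 and 5445 in fl/fl MEF. The d/d libraries lay together far below the fl/fl level, and each OV library lay above all fl/fl libraries by a small margin. Its log2 difference was -1.04 ± 0.11 between d/d and fl/fl MEF (SE, adjusted p = 2.6e-05, limma). mmu-miR-194-5p, which has 1 of its copies beside Mir192, had 114, 101 and 122.25 normalized counts in d/d MEF, 297, 248 and 263 in OV MEF, and 235, 236 and 213.78 in fl/fl MEF. The order of the groups was that of miR-192-5p, without overlap. The log2 difference of miR-194-5p was -1.02 ± 0.15 (SE, adjusted p = 0.000196, limma).

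The miR-449 products were rare in MEF. miR-449c-5p had 32.7, 19.6 and 25.5 normalized counts in d/d MEF, 0, 3.43 and 6.59 in OV MEF, and 6.14, 11.5 and 10.1 in fl/fl MEF. It passed the minimum only through the d/d group, at 24 to 46 reads per library, so its presence among the 8 tested members is not support for a difference. The log2 difference of d/d against fl/fl MEF was 1.41 ± 0.65 (SE, adjusted p = 0.0864, limma), and count tests on recovered reads put the adjusted p at 0.0200 (edgeR quasi-likelihood) and 0.0179 (DESeq2), over a range of 0.00824 to 0.219 in its 16 alternatives. miR-449a-5p had 12.1, 10.2 and 14.9 normalized counts in d/d MEF, 3.97, 5.72 and 5.49 in OV MEF, and 10.2, 9.16 and 4.48 in fl/fl MEF. The d/d and fl/fl libraries of miR-449a-5p overlapped.

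**Figure D1:**
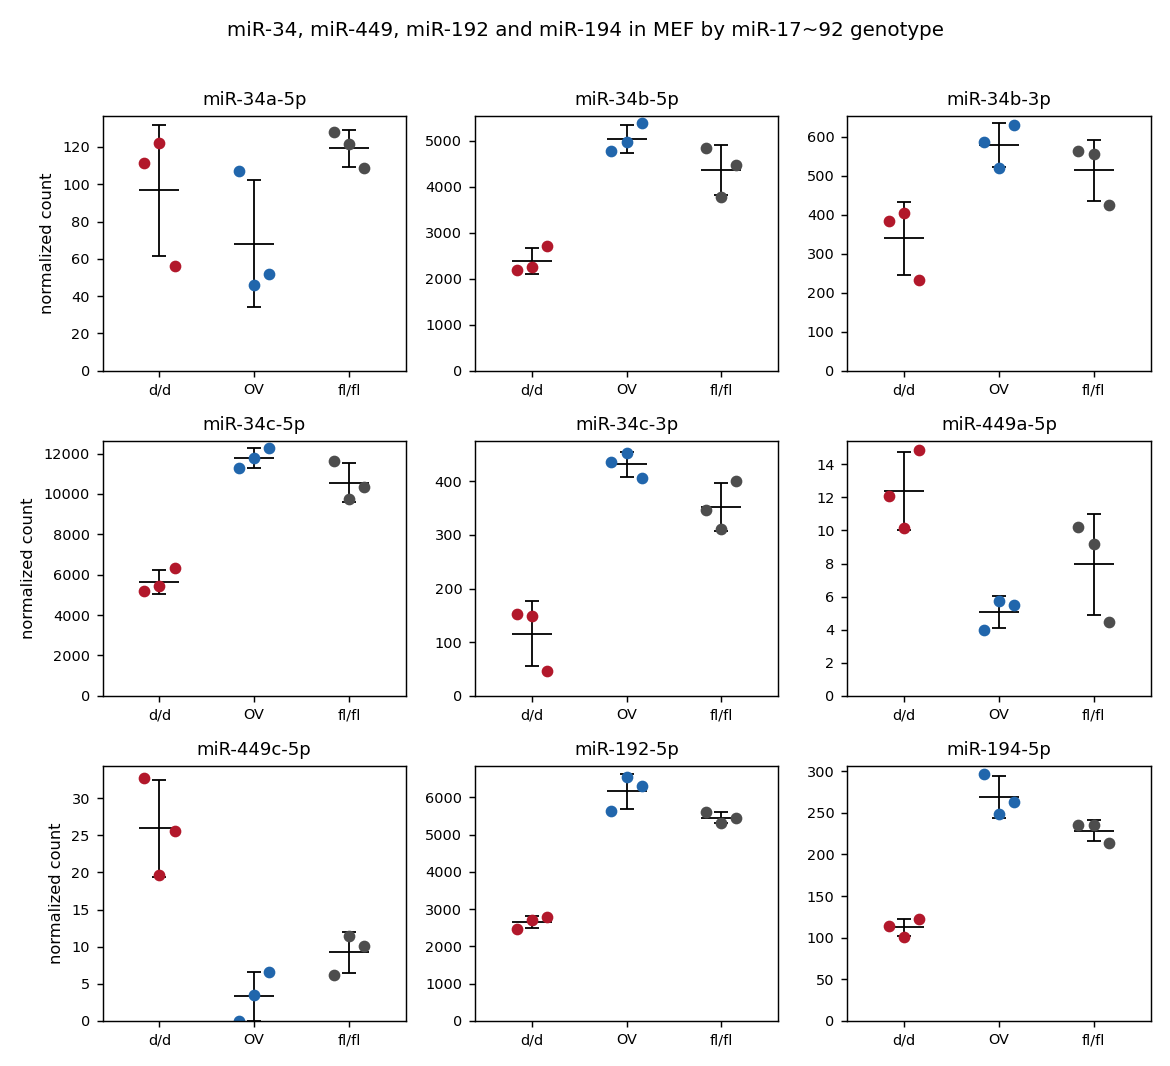
Normalized counts (vertical axes from 0, a separate scale per panel) of the 9 miRNAs in d/d, OV and fl/fl MEF; points are libraries, bars are the mean ± SD of 3. miR-34b, miR-34c, miR-192 and miR-194 are lowest in d/d MEF (miR-192-5p 2472 to 2802, against 5314 to 5616 in fl/fl MEF), and miR-449c-5p is highest there.

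**Figure D2:**
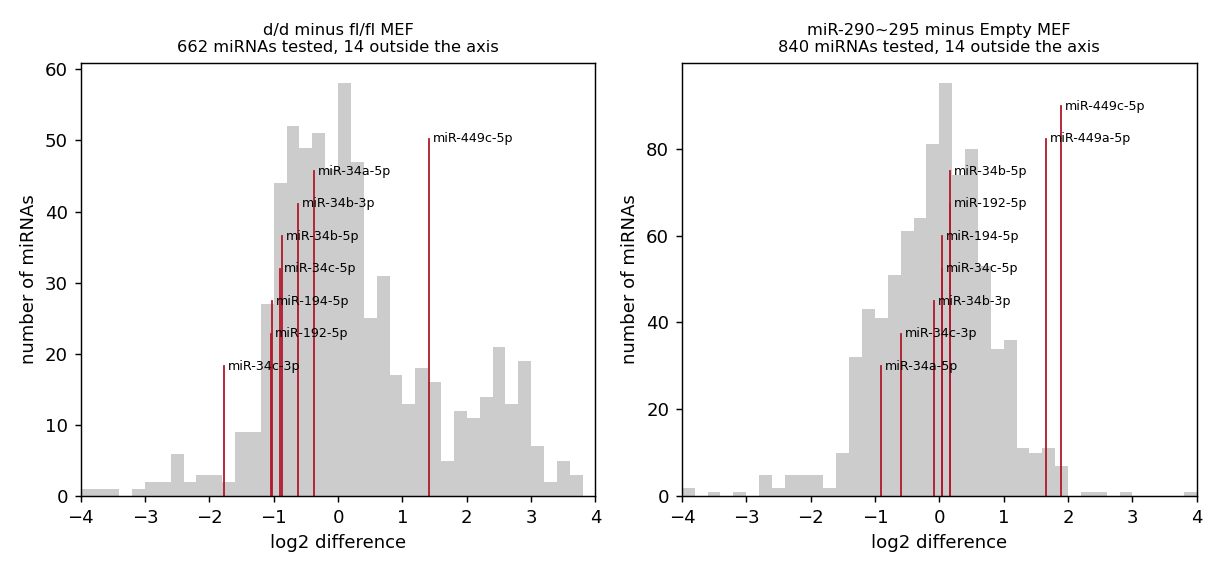
Number of tested miRNAs (vertical axis) by log2 difference (horizontal axis, bins of 0.2) for d/d minus fl/fl MEF and miR-290~295 minus Empty MEF; lines mark the members tested. In the first panel 6 members lie between -1.77 and -0.63, and in the second miR-449a-5p and miR-449c-5p lie at 1.66 and 1.89.

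The scale of the size factors matters for these values. In the spike-in scaled table the d/d libraries were multiplied by 0.75 to 0.831 relative to the other table, the OV libraries by 1.11 to 1.23 and the fl/fl libraries by 1.01 to 1.15. The median log2 difference over all miRNAs then moved to -0.39 in d/d against fl/fl MEF and 147 miRNAs were higher and 283 lower, a split unlike that of the percentages above; with medians centred, 162 were higher and 245 lower. The same 6 members were lower there, with log2 differences of -1.06 to -2.20. The fall of these members exceeded that of the median miRNA on both scales. Rescaling multiplies all miRNAs of a library by the same factor, so the second scale is not a separate check of this.

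Within a library, the ratio of neighbours does not depend on the size factor. There were 2.33 to 2.43 reads of miR-34c-5p per read of miR-34b-5p in d/d MEF, 2.28 to 2.38 in OV MEF and 2.31 to 2.58 in fl/fl MEF. miR-192-5p outnumbered miR-194-5p by 21.7 to 26.7 in d/d MEF, 19.03 to 26.4 in OV MEF and 22.5 to 25.5 in fl/fl MEF. Both ratios overlapped between all 3 groups. The 5p arm of miR-34c exceeded the 3p arm by 33.9 to 135 in d/d MEF, 25.9 to 30.2 in OV MEF and 25.8 to 33.6 in fl/fl MEF, and the highest of these was DEL3. None of the 16 ratio tests, 4 ratios in 4 comparisons, passed after adjustment (two-sided exact permutation tests, smallest adjusted p = 0.4), and 3 libraries against 3 cannot give an unadjusted p below 0.1.

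Read together, the 5 products of the miR-34 and miR-449 family (5p arms of miR-34a, miR-34b, miR-34c, miR-449a and miR-449c) summed to 7526 to 9142 normalized counts in d/d MEF, 16178 to 17715 in OV MEF and 13642 to 16609 in fl/fl MEF. miR-34c-5p made up 68.9 to 69.4% of this sum in d/d MEF, 69.3 to 70.1% in OV MEF and 69.2 to 71.3% in fl/fl MEF. The miR-449 share was 0.380 to 0.595% in d/d MEF, 0.0245 to 0.0682% in OV MEF and 0.0974 to 0.151% in fl/fl MEF. The family sum therefore followed miR-34c and miR-34b, and miR-449 added less than 1% to it in each of these 9 libraries.

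Epithelial and liver marker miRNAs were looked at because miR-449, miR-192 and miR-194 are abundant in those tissues. The 7 of 8 listed epithelial markers summed to 68.3 to 103 normalized counts in d/d MEF, 169 to 203.23 in OV MEF and 282 to 291 in fl/fl MEF, so their sum was lowest in d/d MEF, and miR-429-3p was at 0 there. Most of the fl/fl sum was miR-200b-3p, which had 9.44 to 15.6 in d/d MEF, 21.8 to 30.8 in OV MEF and 153 to 162 in fl/fl MEF. miR-205-5p of the same list lay the other way, with 8.72 to 22.3 in d/d MEF, 10.985 to 23.8 in OV MEF and 3.07 to 3.44 in fl/fl MEF. The 3 of 4 listed liver, gut and kidney markers, which include miR-215-5p, summed to 579 to 762.2 in d/d MEF, 809.5 to 979 in OV MEF and 829 to 931 in fl/fl MEF. Fibroblast markers summed to 4862408 to 5863961 in d/d MEF, 4172345 to 4307888 in OV MEF and 4652015 to 4918506 in fl/fl MEF. The part of other cells in the differences of the members was not tested.

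In MEF that overexpressed miR-17~92, no member passed against fl/fl MEF. Of the 8 members tested, 0 passed in either direction by limma in OV against fl/fl MEF, against 31.3% of all 662 miRNAs (15.6% higher and 15.7% lower). Scaled on spike-ins, 112 of all miRNAs passed as higher and 44 as lower, and with medians centred, 83 and 153. miR-34a-5p and miR-449c-5p had unadjusted p-values under 0.05 in this limma fit, at 0.0294 and 0.0319, and edgeR and DESeq2 also called 0 members. The median log2 difference was 0.18 over the members and -0.07 over all miRNAs. Log2 differences of the 6 products of miR-34b, miR-34c, miR-192 and miR-194 lay between 0.16 and 0.30.

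Among the 8 members tested, the lowest log2 differences of OV against fl/fl MEF were those of miR-34a-5p and miR-449c-5p. miR-34a-5p differed by -0.90 ± 0.36 (SE, adjusted p = 0.0777, limma), with every OV library below every fl/fl library. It passed when each library was centred on its median miRNA (adjusted p = 0.0175), without OV1 (-1.27, adjusted p = 0.0128) and without DEL3, which only enters the spread (adjusted p = 0.0475). miR-449c-5p differed by -1.62 ± 0.65 (SE, adjusted p = 0.0814, limma), -0.78 without OV1 (adjusted p = 0.166) and -2.24 without OV4 (adjusted p = 0.0169), and the groups overlapped at 0 to 11.5 normalized counts.

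Between the extremes of the miR-17~92 dose, OV against d/d MEF, 6 of the 8 members were higher and 1 was lower by limma. The lower one was miR-449c-5p, which passed the minimum only through the d/d group, so it is not counted as support. Of all miRNAs 52.4% passed, 26.7% higher and 25.7% lower. Scaled on spike-ins, 333 passed as higher and 120 as lower. These values reuse the OV and d/d libraries described above, and the 6 higher members are the same linked products. miR-192-5p (1.21 ± 0.11), miR-194-5p (1.25 ± 0.15), miR-34b-5p (1.09 ± 0.14) and miR-34c-5p (1.06 ± 0.12) had adjusted limma p-values from 5.4e-06 to 5.7e-05. miR-449c-5p had a log2 difference of -3.03 ± 0.65 (SE, adjusted p = 0.00258, limma), with 0 to 6 reads per OV library, so this size depends on the pseudocount. miR-34a-5p differed by -0.53 ± 0.36 (SE, adjusted p = 0.245, limma), by 0.03 in the spike-in scaled table, and by -0.90 without OV1, where it passed (adjusted p = 0.0350).

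**Figure D3:**
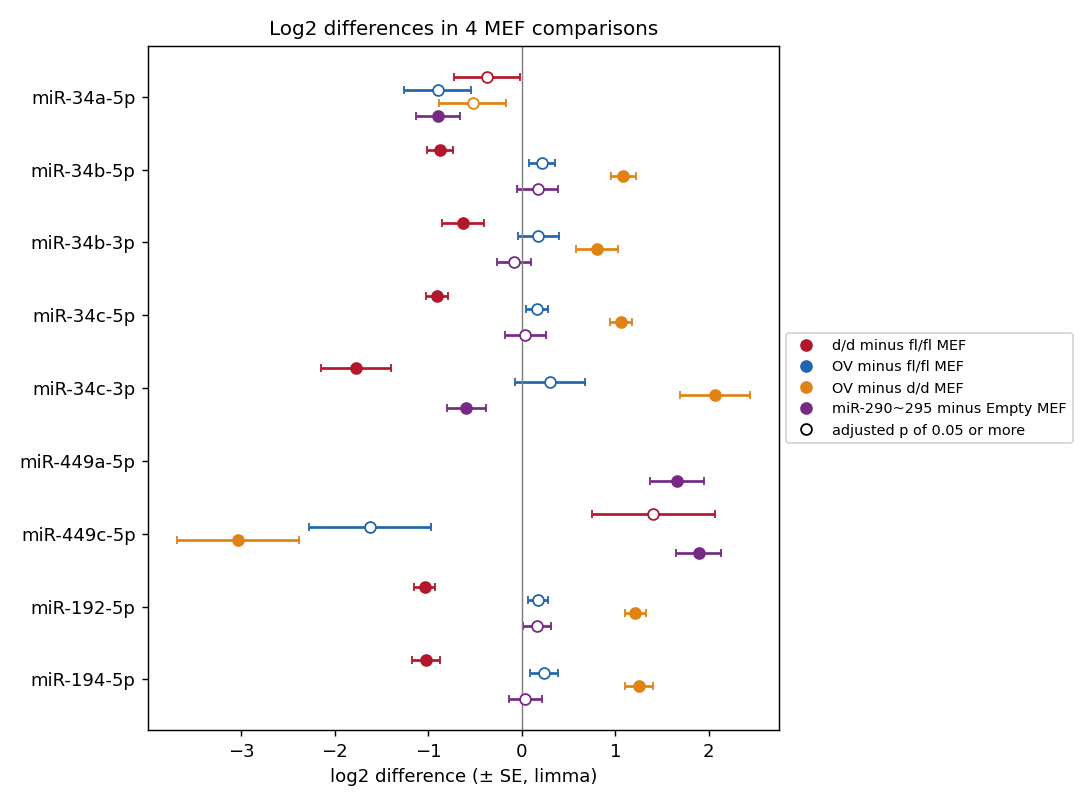
Log2 differences (horizontal axis) of the members (rows) in 4 MEF comparisons, with the SE from limma; filled points passed an adjusted p of 0.05. miR-34b, miR-34c, miR-192 and miR-194 lie left of 0 in d/d minus fl/fl and right of 0 in OV minus d/d, and miR-449c-5p lies on the other side in both.

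In d/d MEF given the miR-290~295 cluster, the main miRNAs of mouse embryonic stem cells, miR-449a-5p and miR-449c-5p were 3.16- and 3.72-fold higher than with the empty plasmid, and miR-34a was lower. Of all 9 members, tested in this set, 2 were higher, 2 were lower and 5 did not pass by limma. By the same rule 38.9% of 840 miRNAs differed, 16.7% higher and 22.3% lower. Median log2 differences were 0.04 over the members and 0.02 over all miRNAs.

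mmu-miR-449a-5p had 96.5, 160 and 112 normalized counts in miR-290~295 MEF, against 37.1, 49.6 and 28.1 in Empty MEF. The groups did not overlap, and the log2 difference was 1.66 ± 0.29 (SE, n = 3 each, adjusted p = 0.00230, limma). mmu-miR-449c-5p had 195, 146 and 163 normalized counts in miR-290~295 MEF, against 34.9, 53.1 and 46.6 in Empty MEF. It too stood apart in every library, with a log2 difference of 1.89 ± 0.24 (SE, adjusted p = 0.000401, limma). The other arm of the miR-449a hairpin, miR-449a-3p, averaged 76.7 ± 7.96 normalized counts in miR-290~295 MEF and 34.3 ± 10.9 in Empty MEF (SD, n = 3 each), a log2 difference of 1.18 ± 0.29 (SE, adjusted p = 0.0108, limma). Products of the Mir449a and Mir449c hairpins were thus higher. miR-449a-5p and miR-449c-5p passed under each alternative that could be fitted for them, with log2 differences of at least 1.19 and 1.42. miR-449b, of the same family, was under the minimum, with a mean of 0.935 normalized counts in miR-290~295 MEF and 1.62 in Empty MEF.

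miR-34a-5p, which has the seed of miR-449, lay the other way. It had 168, 203.13 and 131 normalized counts in miR-290~295 MEF, against 262, 283 and 393 in Empty MEF, with no overlap. The log2 difference was -0.90 ± 0.24 (SE, adjusted p = 0.0156, limma), and it no longer passed without miR-290 3 (-0.73, adjusted p = 0.0704) or without miR-290 1 (-0.91, adjusted p = 0.0503). miR-34c-3p had 545, 654 and 388 normalized counts in miR-290~295 MEF, against 779, 740 and 828 in Empty MEF. Its groups did not overlap either, but the log2 difference of -0.60 ± 0.21 (SE, adjusted p = 0.0486, limma) passed in 8 of 15 alternatives.

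The abundant products did not pass here. miR-34c-5p had 16382, 19598 and 17841 normalized counts in miR-290~295 MEF, against 12011, 20039 and 22001 in Empty MEF, and the first Empty library was the lowest of all. miR-34b-5p showed the same low E1 library, with 5138, 6397 and 5663 normalized counts in miR-290~295 MEF, against 3591, 5429 and 6719 in Empty MEF. miR-192-5p had 9571, 8892 and 9547 normalized counts in miR-290~295 MEF, against 7100, 9639 and 8476 in Empty MEF. The groups overlapped for each of these, and also for miR-34b-3p and miR-194-5p. Their 5 log2 differences lay between -0.08 and 0.17, with adjusted p-values of at least 0.416 (limma).

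**Figure D4:**
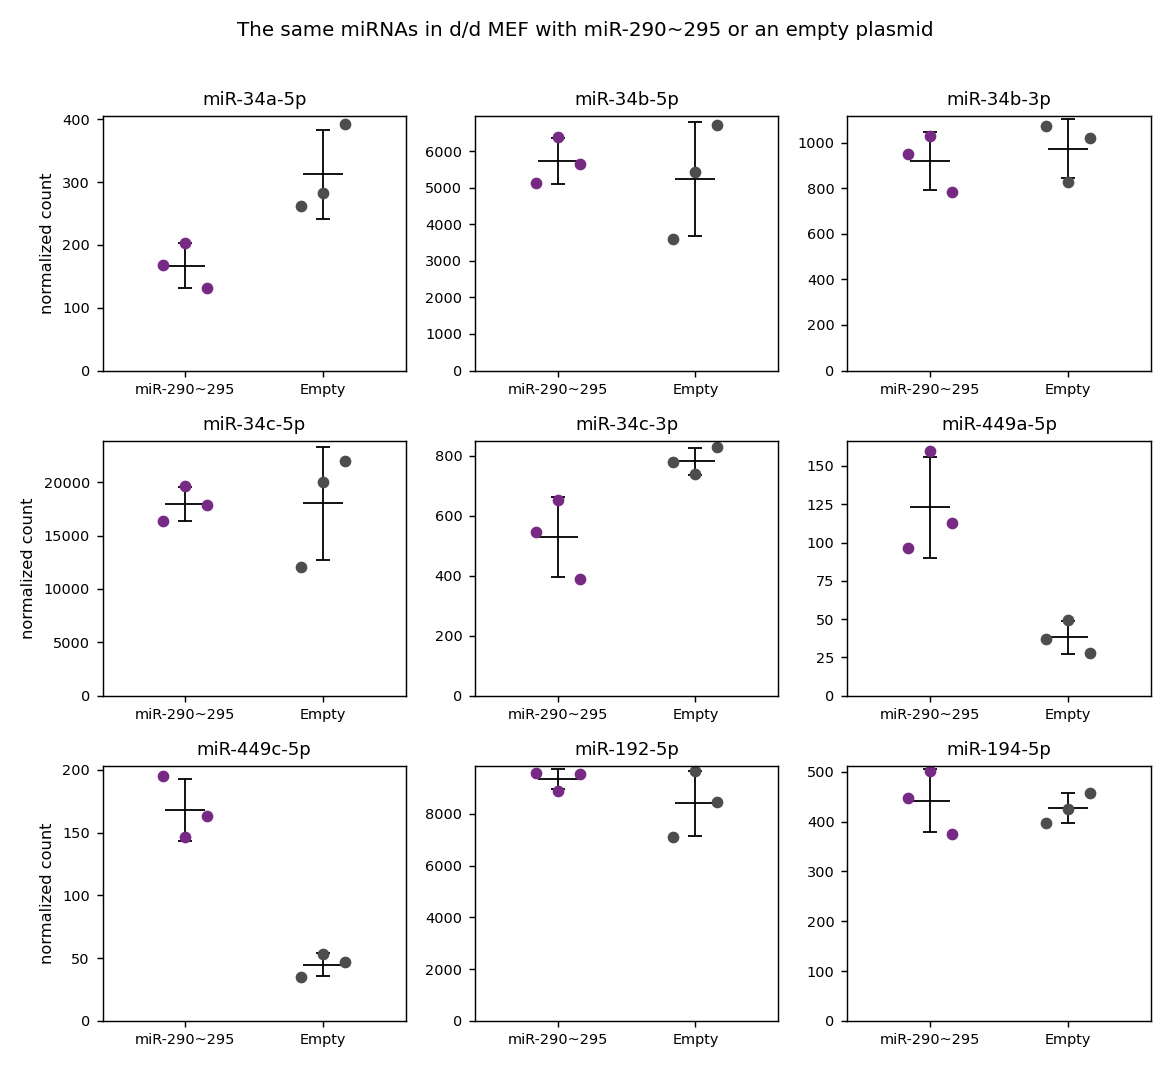
Normalized counts (vertical axes from 0, a separate scale per panel) of the 9 miRNAs in d/d MEF with miR-290~295 or with the empty plasmid; points are libraries, bars are the mean ± SD of 3. The 3 libraries with miR-290~295 lie above those with the empty plasmid for miR-449a-5p (96.5 to 160, against 28.1 to 49.6) and miR-449c-5p, and below them for miR-34a-5p and miR-34c-3p.

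Scaling again sets part of these values. The spike-in scaled table multiplied the miR-290~295 libraries by 0.787 to 0.963 and the Empty libraries by 1.12 to 1.31. There the median of all miRNAs was -0.46, with 56 higher and 331 lower in place of 140 and 187. On that scale the log2 differences of miR-34b-5p, miR-34c-5p, miR-192-5p and miR-194-5p were negative, from -0.45 to -0.32, and none of them passed. miR-449a-5p and miR-449c-5p were higher and miR-34a-5p and miR-34c-3p lower on both scales. The 7 of 8 listed epithelial markers summed to 232 to 267 normalized counts in miR-290~295 MEF, against 249 to 288 in Empty MEF. Within this sum, miR-200b-3p was higher in every library with miR-290~295, as miR-449 was, at 46.6 to 69.1, against 21.3 to 36.0 in Empty MEF. miR-205-5p lay the other way, at 9.28 to 10.6 in miR-290~295 MEF, against 47.8 to 58.5 in Empty MEF. The part of epithelial cells in the miR-449 values was not tested.

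In B cells each genotype had 1 library, so these are differences of single libraries, with no replicate check, and the intervals are exact Poisson 95% intervals that cover counting error only. The miR-34b and miR-34c products were higher in the d/d library than in the fl/fl library, the opposite side from MEF, whereas miR-192 was lower in both cell types; the difference between the cell types was not tested. Of the 7 members with a mean of at least 10, 4 were past 2-fold higher and 1 was past 2-fold lower in d/d against fl/fl B cells, beside 16.2% and 18.1% of 476 miRNAs, 34.2% in all. Of the 4 higher, miR-34a-5p and miR-34b-5p reached that mean only through the d/d library, so neither this count nor the median supports a difference. The median log2 difference was 1.67 over these members and -0.01 over all 476. In OV against fl/fl B cells 0 members were past 2-fold higher and 3 were past 2-fold lower, beside 6.3% of all miRNAs on each side, 12.6% in all, with medians of 0.21 over the members and 0.02 over all. Of the 3 lower, miR-34b-5p rests on 2 reads in OV and 12 in fl/fl B cells. Its OV over fl/fl ratio of 0.237 (0.0257 to 1.06) has an interval that includes equality. It reached the mean of 10 only through the d/d library, so it is not counted as support.

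miR-34c-5p had 5277 normalized counts (5151 to 5406) in d/d B cells, 648 (592 to 709) in OV B cells and 1345 (1276 to 1417) in fl/fl B cells. The d/d library held 3.92-fold more than the fl/fl library, and the OV library the least. miR-34b-3p had 133 (113 to 154) in d/d, 24.1 (14.3 to 38.1) in OV and 16.03 (9.34 to 25.7) in fl/fl B cells. miR-34b-5p had 38.1 (28.1 to 50.5) in d/d, 2.68 (0.325 to 9.68) in OV and 11.3 (5.85 to 19.8) in fl/fl B cells. For both arms of miR-34b the d/d interval lay above the other intervals. miR-34a-5p had 25.4 in d/d, 8.04 in OV and 4.71 in fl/fl B cells, which rests on 32 reads in d/d, 6 in OV and 5 in fl/fl B cells. Its ratio of d/d over fl/fl B cells was 5.39 (2.08 to 17.7). miR-34c-3p had 30, 3 and 1 reads in d/d, OV and fl/fl B cells and was under the minimum.

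miR-192-5p had 6756 (6613 to 6901) normalized counts in d/d, 14703 (14429 to 14981) in OV and 11984 (11777 to 12194) in fl/fl B cells. miR-194-5p had 1146 (1088 to 1207) in d/d, 1658 (1567 to 1753) in OV and 1439 (1367 to 1513) in fl/fl B cells. Neither was past 2-fold from fl/fl in either genotype. In normalized counts both were in the order d/d, fl/fl, OV, low to high, but the place of OV depends on the size factors. miR-192-5p had 8509 reads in d/d, 10976 in OV and 12712 in fl/fl B cells, and miR-194-5p had 1444, 1238 and 1526. Listed reads totalled 10573018 in d/d, 10203586 in OV and 10612256 in fl/fl B cells. As a share of listed reads, both miRNAs were lower in OV than in fl/fl B cells, and miR-194-5p was lowest in OV. miR-449a-5p had 24.6 (16.7 to 34.9) in d/d, 21.4 (12.3 to 34.8) in OV and 51.9 (39.1 to 67.5) in fl/fl B cells, so it was highest in the fl/fl library. miR-449c-5p had 2, 0 and 3 reads in d/d, OV and fl/fl B cells, and no fold is given.

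**Figure D5:**
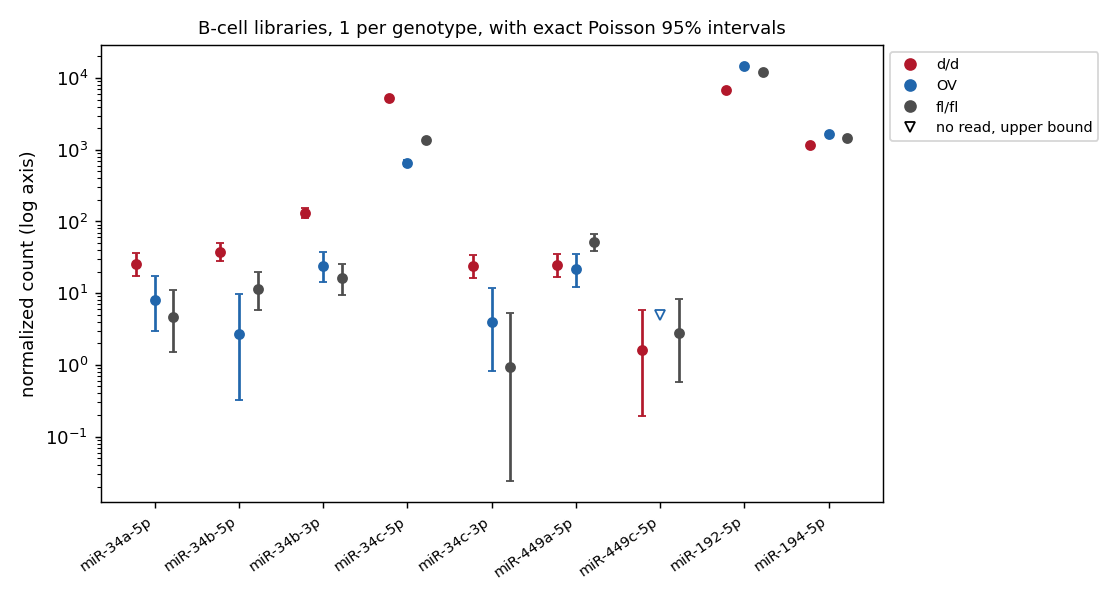
Normalized counts (vertical log axis) of the 9 miRNAs in the d/d, OV and fl/fl B-cell libraries, 1 per genotype, with exact Poisson 95% intervals; the open triangle is the upper bound where no read was found. miR-34c-5p is at 5277 in the d/d library, against 648 in the OV and 1345 in the fl/fl library, and miR-192-5p is lowest in the d/d library.

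The balance of the miR-34b/c products differed between the cell types in each genotype. Reads of miR-34c-5p outnumbered those of miR-34b-5p by 138 in d/d, 242 in OV and 119 in fl/fl B cells, against 2.28 to 2.58 over the 9 libraries of the miR-17~92 MEF set. The miR-34b 5p arm was below its 3p arm in B cells, at 0.287 in d/d, 0.111 in OV and 0.706 in fl/fl, and above it in the same MEF libraries, at 5.55 to 11.7. These ratios are within a library, and the OV B-cell values rest on 2 reads of miR-34b-5p. In fl/fl B cells there were 12 reads of miR-34b-5p and 17 of miR-34b-3p, with overlapping intervals, so the 2 arms cannot be told apart there.

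Most fibroblast markers were higher in the d/d B-cell library, as miR-34c-5p was. Of the 8 markers, 6 were past 2-fold higher in d/d against fl/fl B cells, and miR-21a-5p (1.12-fold) and miR-152-3p (1.17-fold) were not. In OV against fl/fl B cells, where miR-34c-5p was past 2-fold lower, 0 of the 8 were past 2-fold, beside 12.6% of 476 miRNAs. miR-143-3p had 5266 normalized counts in d/d, 1088 in OV and 1303 in fl/fl B cells, and miR-199a-3p had 1496 in d/d, 367 in OV and 341 in fl/fl B cells. The summed level of the 8 markers, most of it miR-21a-5p, was 472125 in d/d, 337683 in OV and 414738 in fl/fl B cells. There was 1.00 read of miR-34c-5p per read of miR-143-3p in d/d B cells, 0.596 in OV B cells and 1.03 in fl/fl B cells, against 0.0046 to 0.0131 in the miR-17~92 MEF set. Of the B-cell and blood markers, 7 of 8 were listed, and they summed to 182656 in d/d, 184816 in OV and 172294 in fl/fl B cells. In d/d against fl/fl B cells, 1 of these 7 was past 2-fold higher and 1 was past 2-fold lower, beside 16.2% and 18.1% of 476 miRNAs. The lower one was miR-150-5p, a miRNA of mature lymphocytes, with 8.73 in d/d, 71.0 in OV and 62.2 in fl/fl B cells. The higher one was miR-223-3p, with 15.9 in d/d, 1.34 in OV and 0 in fl/fl B cells. The others were miR-142a-3p (0.991-fold), miR-142a-5p (1.06-fold), miR-155-5p (0.786-fold), miR-181a-5p (1.23-fold) and miR-451a (1.88-fold). The part of other cells in the B-cell values was not tested.

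Other miRNAs that p53 is known to raise, or that belong to the same hairpins and gene families, were read from a list of 24. In d/d against fl/fl MEF, 2 of the 14 tested were higher and 3 were lower by limma, against 30.7% higher and 27.6% lower over all miRNAs, and the median log2 difference was 0.14 over the 14 and 0.02 over all. miR-215-5p, which has the miR-192 seed, averaged 210 ± 15.7 normalized counts in d/d MEF and 417 ± 68.4 in fl/fl MEF (SD, n = 3 each), a log2 difference of -0.98 ± 0.24 (SE, adjusted p = 0.00528, limma). Mir215 and Mir192 lie on different chromosomes. The other arm of the Mir194-2 hairpin, miR-194-2-3p, averaged 36.6 ± 5.66 in d/d MEF and 53.8 ± 9.77 in fl/fl MEF (SD), with a log2 difference of -0.54 ± 0.24 (SE, adjusted p = 0.0752, limma). The largest changes on the list were those of miR-205-5p (1.97), miR-200c-3p (-1.26) and miR-149-5p (1.04), and miR-34a-3p stayed under 5 normalized counts in each of the 9 libraries.

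In OV against fl/fl MEF, 1 of the 14 was higher (miR-205-5p, 2.00) and 1 was lower (miR-149-5p, -0.76), against 15.6% and 15.7% of all miRNAs. In OV against d/d MEF 2 were higher and 1 was lower, against 26.7% and 25.7% of all. The medians were -0.08 over the list and -0.07 over all miRNAs in OV against fl/fl MEF, and -0.02 and 0.02 in OV against d/d MEF. In the miR-290~295 set, 1 of 15 was higher, miR-449a-3p, and 6 were lower, miR-143-3p and miR-143-5p, miR-145a-5p and miR-145a-3p, miR-149-5p and miR-205-5p, against 16.7% higher and 22.3% lower over all miRNAs. The median was -0.21 over the list and 0.02 over all there. miR-143 and miR-145, whose processing p53 is known to promote in human cells, had log2 differences of -0.92, -1.06, -1.35 and -0.77 for these 4 products in that order. Both miR-143-3p and miR-145a-5p are also fibroblast markers here. Of the other markers, miR-152-3p (51687 to 67534, against 106812 to 157881 in Empty MEF), miR-214-3p and miR-199a-5p were lower without overlap. The marker miR-31-5p was higher (26168 to 34622, against 12922 to 15265), and miR-199a-3p and miR-21a-5p overlapped. A link between these changes was not tested. miR-215-5p did not pass there, at -0.16 ± 0.18 (SE, adjusted p = 0.488, limma). In B cells, 4 of 12 were past 2-fold higher and 1 was past 2-fold lower in d/d against fl/fl, against 16.2% higher and 18.1% lower over all miRNAs, with medians of 0.49 over the list and -0.01 over all. Of those 4, miR-145a-5p reached the mean of 10 only through the d/d library. In OV against fl/fl B cells 0 of 12 were past 2-fold, against 12.6% of all miRNAs, with medians of 0.03 over the list and 0.02 over all.

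The miRNAs with patterns most like the members over the 9 libraries of the miR-17~92 MEF set were found by the root-mean-square difference of centred log2 values, as a description. miR-34b-5p and miR-34c-5p were closest to each other, at 0.05. Next came miR-192-5p, at 0.12 from miR-34b-5p and 0.10 from miR-34c-5p. Outside the members, miR-30b-3p and miR-30d-3p were the nearest to miR-34b-5p and miR-34c-5p, at 0.12 to 0.14, and miR-30d-5p to miR-192-5p, at 0.12. miR-194-5p was nearest to miR-188-5p, at 0.13, and miR-30d-5p, at 0.13, beside 0.14 from miR-192-5p. miR-34a-5p had no member nearer than 0.66, and its nearest neighbour was miR-455-3p, at 0.30. miR-34b-3p was nearest to miR-194-2-3p, at 0.15, and miR-34c-3p to miR-30b-5p, at 0.39. The nearest neighbour of miR-449c-5p, miR-1247-3p, was 0.73 away.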

How the data were processed

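The deposited values are a signal, reads per mature miRNA that the authors had scaled by a size factor for each library. The submitters' processing notes name DESeq2, with no version. No source used here gives the aligner, annotation or filter. Small RNAs were gel-purified from total RNA and made into libraries with a NEBNext kit, with spike-ins added, per the labels' protocols. The authors also deposited 33 columns named rLog, per the file headers, which were not used. OV and fl/fl MEF columns were assigned by group name alone.

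limma 3.58.1 (R 4.3.3) was fitted to log2(normalized count + 1), allowing the variance to follow the mean, for miRNAs averaging 10 or more, separately in each set, with 9 and 6 MEF libraries. Benjamini-Hochberg adjustment at 0.05 covered all of them (662 and 840). Fold changes on this scale understate changes of low miRNAs. Whole reads were recovered from the steps between low values for edgeR 4.0.16 (TMM) and DESeq2 1.42.0; 100.0% of values were whole within 0.001 of a read. In d/d against fl/fl MEF edgeR called 391 and DESeq2 402 miRNAs, in OV against fl/fl 182 and 237, in OV against d/d 350 and 350, and against Empty 327 and 348. For the miR-17~92 MEF set the reads came from the spike-in scaled table, because the step of OV1 in the other table is close to 1; shared reads were identical in both. Other alternatives were pseudocounts of 0.5 and 5, no minimum or 100, the spike-in scaled tables, centred medians and each library left out. The limma step was tested on simulated data. Ratios had exact permutation tests in Python 3.11.15 with scipy 1.17.1. Reads have no molecular identifiers, so intervals cover counting error only.

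All 9 members are named, with the 3 largest called changes of the pathway list in each comparison, arms or partners of members, and the 3 nearest miRNAs by pattern; the nearest are printed. miR-215-5p and the other lower miRNAs of the list are named beyond that rule, chosen after their values were seen. The members, lists and tests were chosen with earlier results of these data known.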

Additional observations from a re-analysis of the deposited data

Results flagged for a closer look

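For 4 results the B-cell difference lay on the other side from that of MEF, where the libraries of the 2 groups did not overlap. This rule was applied to the members only. The share of all miRNAs that meets it is not known, so the count of 4 cannot be called unusual. In d/d against fl/fl, the log2 difference in B cells was 1.67 for miR-34b-5p, 2.97 for miR-34b-3p and 1.97 for miR-34c-5p, whereas in MEF all d/d libraries lay below all fl/fl libraries (-0.87, -0.63 and -0.90). In OV against fl/fl, miR-34a-5p differed by 0.66 in B cells, on 6 and 5 reads with a ratio interval from 0.434 to 7.06 that includes equality, and by -0.90 in MEF. In B cells, miR-34b-5p and miR-34a-5p reached the minimum mean only through the d/d library, so their results are not counted as support. Each B-cell group has 1 library, so the difference between the cell types was not tested. The fibroblast marker miR-143-3p was 4.04-fold higher in the d/d than in the fl/fl B-cell library, beside 3.92-fold for miR-34c-5p; its part in these values was not tested.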

How the results depend on the processing

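Counts of members called moved by over 1.5 times in OV against fl/fl MEF and against Empty. In OV against fl/fl MEF 1 member in place of 0 passed when medians were centred, and the range was 0 to 1 when a library was left out; all miRNAs called there ranged from 124 (without FL5) to 233, against 207. Without miR-290 1 or miR-290 3, 2 members in place of 4 passed against Empty (range 2 to 4; all miRNAs 224 to 380, against 327). With a library left out, 5 to 7 members and 342 to 409 of all miRNAs passed in d/d against fl/fl MEF, and 7 to 8 members and 305 to 343 of all miRNAs in OV against d/d MEF. The cause was not tested.

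Signs turned for values that had not passed. In the spike-in scaled table this held for miR-34a-5p in OV against d/d MEF (0.0333), and against Empty for miR-34b-5p (-0.32), miR-34c-5p (-0.45), miR-192-5p (-0.32) and miR-194-5p (-0.44). With medians centred miR-34c-5p was -0.0694 and miR-194-5p -0.0671, and with edgeR miR-34c-5p was -0.0434. With a library left out the ranges against Empty were -0.081 to 0.37 (miR-34b-5p), -0.19 to 0.0322 (miR-34b-3p), -0.23 to 0.21 (miR-34c-5p) and -0.0572 to 0.15 (miR-194-5p). Log2 ratios that turned ranged, for miR-34c-5p over miR-34b-5p, from -0.0674 to 0.0117 (d/d against fl/fl); for miR-192-5p over miR-194-5p, from -0.11 to 0.0434 (d/d against fl/fl), -0.16 to 0.0741 (OV against fl/fl), -0.14 to 0.0934 (OV against d/d) and -0.0059 to 0.25 (against Empty); and for miR-34b 5p over 3p, from -0.13 to 0.19 (OV against fl/fl) and -0.0745 to 0.42 (against Empty).

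No paired analysis was possible for the miR-17~92 MEF set because the OV and fl/fl columns carry no label number. In the miR-290~295 set, same-numbered libraries correlated by 0.28, 0.01 and -0.26, and differently numbered ones by -0.38 to 0.39. With so few libraries these values cannot tell whether the numbers pair them. With the replicate block 3 members and 298 miRNAs passed, and miR-34c-3p (-0.60, adjusted p = 0.0736) did not. Another tally over single miRNAs and ratios gives 621 values on the same side, 10 that newly passed, 12 that no longer passed and 25 that turned.

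The miR-449 and miR-34a values rest on few reads in MEF and B cells, which limits their precision.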
